A study of Macaca mulatta with 9 samples.

Results

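The genes described here encode subunits of the mitochondrial respiratory chain and of ATP synthase, together with complex I assembly factors that share the NDUF prefix. Members were the probe sets whose single gene symbol in the array annotation begins with NDUF, UQCR, COX4, COX5, COX6, COX7, COX8 or ATP5, or is SDHA, SDHB, SDHC, SDHD, CYC1 or CYCS. This gave 108 probe sets of 65 gene symbols, out of 52766 non-control probe sets and 14132 symbols. Of these, 95 probe sets of 63 genes had enough signal to be tested, and 13 did not. The 13 were the only probe sets of COX6A2 and NDUFA4L2 and further probe sets of NDUFB6, NDUFV3, NDUFAF5, NDUFAF7, SDHC, UQCR11, COX5A, ATP5G1, ATP5MG and ATP5PO, and counts over tested members leave them out. A further 12 probe sets that carry several symbols, at least 1 of which meets the rule, were left out. SDHD, CYCS, COX4I1, COX6A1 and ATP5F1A, and the subunits encoded by mitochondrial DNA, are not analysed here. The symbol ATP5G1 is an older name for ATP5MC1, and both names stand in the annotation.

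Oxidative phosphorylation takes place in the inner mitochondrial membrane. Complex I accepts electrons from NADH and complex II from succinate, complex III hands them to cytochrome c, complex IV reduces oxygen, and ATP synthase turns the resulting proton gradient into ATP. In a growing ovarian follicle the granulosa cells rely largely on glycolysis and provide pyruvate to the oocyte, which depends on its mitochondria for ATP.

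The tissue was the small antral follicle of the rhesus macaque ovary, a stage at which a fluid-filled cavity has formed, and its RNA was hybridised to Affymetrix arrays with 1 colour. The donors were young adult monkeys sampled in the early follicular phase, in 3 groups of 3 arrays: females on a Western-style diet with chronically raised androgen (WSD+T), females on the Western-style diet alone (WSD), and females on a standard diet (control). Each array held follicles pooled by female and ovary, 3.7 ± 0.3 per ovary from 3 ovaries per group, with the follicle wall, granulosa cells and cumulus-oocyte complex together; the androgen dose and the duration are not given in the sources used here. Values are linear MAS5 signals that the authors had scaled to the same trimmed mean (200.01) on every array. A probe set's signal is compared here only with its own signal on other arrays, because different probe sets bind with different strength.

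Median signal per array lay between 15.9 and 23.8, and the 3′ to 5′ signal ratio of the GAPDH control probes lay between 1.56 and 1.74 in WSD+T, 1.45 and 1.58 in WSD, and 1.30 and 1.55 in control follicles. Markers of the expected cells were present: the oocyte coat protein ZP3 gave 416, 517 and 442 in WSD+T, 302, 365 and 143 in WSD and 297, 261 and 152 in control follicles, and the granulosa hormone subunit INHA gave 280.1, 343 and 393, 336, 306 and 728 and 957, 2605 and 2535 in the same order of groups. The WSD+T arrays were closer to each other than those of the other groups. The SD of the log2 difference between arrays of a group, over the tested members, was 0.15 to 0.25 in WSD+T, 0.36 to 0.65 in WSD and 0.43 to 0.49 in control follicles. Over all 26383 tested probe sets these SDs were 0.21 to 0.32, 0.60 to 1.03 and 0.53 to 0.59. The labels call the arrays biological replicates, and p-values here measure the spread between them. Whether the close agreement of the WSD+T arrays is of biological or technical origin, and whether WSD+T replicates 1 and 3, the closest pair, were independent, was not tested. With these 2 arrays averaged into 1 sample, limma called 0 probe sets of the table in either comparison of WSD+T, against 520 and 789 of 26383 with all arrays.

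Most subunit genes differed little between the groups. Signals were put on the scale log2(signal + 16) and fitted in 1 limma model over all 9 arrays, with p-values adjusted by Benjamini-Hochberg over all tested probe sets; a probe set was called when its adjusted p was under 0.05. Setting WSD+T against control addresses diet and androgen together, setting WSD against control addresses the diet alone, and setting WSD+T against WSD addresses the androgen on top of the diet. The first and the second of these share the control arrays, the first and the third the WSD+T arrays, and the second and the third the WSD arrays. The results of the 3 comparisons are therefore not independent.

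In WSD+T vs control, 0 of 95 member probe sets were called, against 1.97% of all tested probe sets (0.542% higher and 1.43% lower). At an unadjusted p under 0.05 there were 12 members, 4 higher and 8 lower, against 19.2% of all tested probe sets. The lowest adjusted p was 0.0722, for NDUFS7. The 3 WSD+T arrays did not overlap the 3 control arrays for 27 of 95 members, 8 higher and 19 lower, against 36.8% of all tested probe sets (18.8% higher and 18% lower). The median log2 fold change was -0.09 over the members and -0.01 over all tested probe sets. When only the 6 arrays of these groups were fitted, or when each group had its own array weight, 6 of 96 and 5 of 95 members (6.25% and 5.26%) were called, against 12.3% and 12.4% of all tested probe sets in the same fits. The 6 include NDUFA4L2, which passed the signal filter there only because the WSD arrays were left out.

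In WSD vs control, 6 of 95 member probe sets were called, 1 higher and 5 lower, against 14.5% of all tested probe sets (4.78% higher and 9.68% lower). At an unadjusted p under 0.05 there were 22 members, against 31.1% of all. The arrays of the groups did not overlap for 22 members, 5 higher and 17 lower, against 30.8% of all tested probe sets (10.6% higher and 20.2% lower). The median log2 fold change was -0.07 over the members and -0.08 over all tested probe sets. The called probe sets belonged to NDUFS7, NDUFV3, NDUFAF1, NDUFAF5 and ATP5IF1, which fell, and COX7A2, which rose. NDUFS7 passed in every alternative fit run, and the other 5 did not. With only the 6 arrays of these groups, with an array weight per group, or with WSD+T replicates 1 and 3 averaged, NDUFS7 alone was called. Over the table these fits called 3.46%, 5.18% and 9.64% of all tested probe sets. Without WSD replicate 3, 14 of 96 members (14.6%) were called, 3 higher and 11 lower, against 25.1% of all tested probe sets in that fit. Without WSD replicate 2 there were 4, against 13.6% of all. Without WSD replicate 1, or without control replicate 2, there were 2, against 9.93% and 6.58%. Without control replicate 1 or control replicate 3 there was 1, against 10.2% and 7.76%. Leaving out WSD+T replicate 1, 2 or 3 also gave 1, against 9.34%, 10.7% and 9.38% of all tested probe sets.

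In WSD+T vs WSD, 0 of 95 member probe sets were called, against 2.99% of all tested probe sets (2.04% higher and 0.948% lower). At an unadjusted p under 0.05 there were 6 members, 5 higher and 1 lower, against 20.9% of all. The lowest adjusted p was 0.0891, for SDHC. The arrays of the groups did not overlap for 16 members, 8 in each direction, against 28.5% of all tested probe sets (17.5% higher and 10.9% lower). The median log2 fold change was 0.02 over the members and 0.09 over all tested probe sets.

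**Figure D1:**
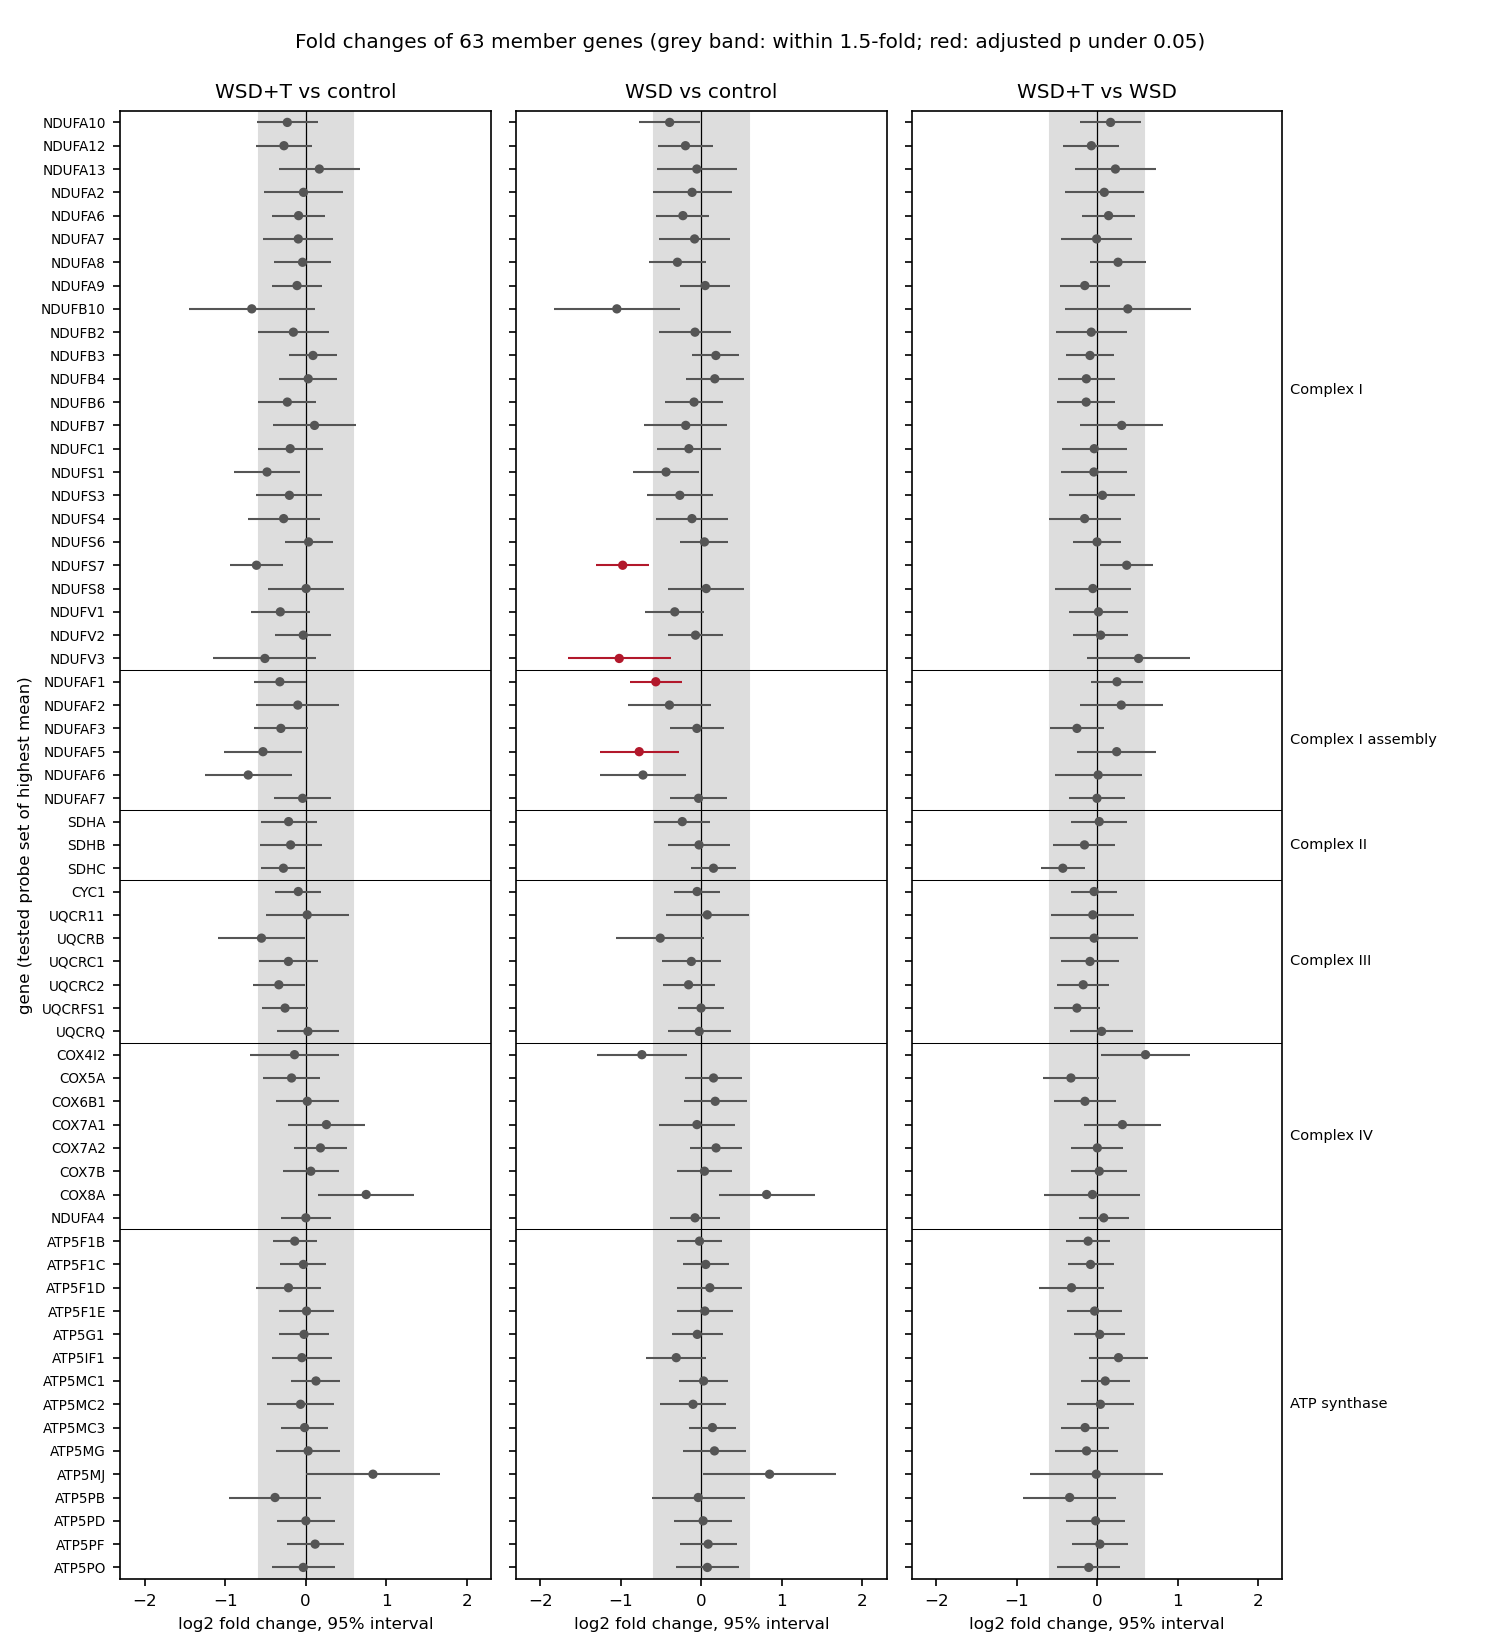
Log2 fold changes of the 63 tested member genes (rows, grouped by complex, each by its tested probe set of highest mean) in the 3 comparisons, with 95% intervals from limma; the grey band marks changes within 1.5-fold and red marks an adjusted p under 0.05. Red appears in WSD vs control only, for NDUFS7, NDUFV3, NDUFAF1 and NDUFAF5, and most points lie inside the band.

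The intervals show how large a difference the data allow. With each gene represented by its tested probe set of highest mean, the 95% interval of the fold change, not adjusted for the number of genes, lay within 1.5-fold in either direction for 36 of 63 genes in WSD+T vs control, 41 in WSD vs control and 44 in WSD+T vs WSD. It lay within 2-fold for 56, 54 and 60 of 63 genes. With only the arrays of the groups compared, the counts within 1.5-fold were 39, 26 and 41. The median log2 fold change over these 63 genes was -0.09, -0.06 and -0.01 in the same order of comparisons.

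The members include many bright probe sets. A mean signal of 1000 or more was found for 40 of 95 tested member probe sets (42.1%) and for 4162 of all 26383 (15.8%). Of these 40, 0 were called in any comparison, and all had fold changes within 1.5-fold and 95% intervals within 2-fold. Limma called 0.985% of the 4162 bright probe sets in WSD+T vs control, 8.41% in WSD vs control and 1.06% in WSD+T vs WSD. At an unadjusted p under 0.05 there were 2, 0 and 1 of the 40 bright members in the same order of comparisons, against 14.2%, 22.3% and 14.4% of all bright probe sets.

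**Figure D2:**
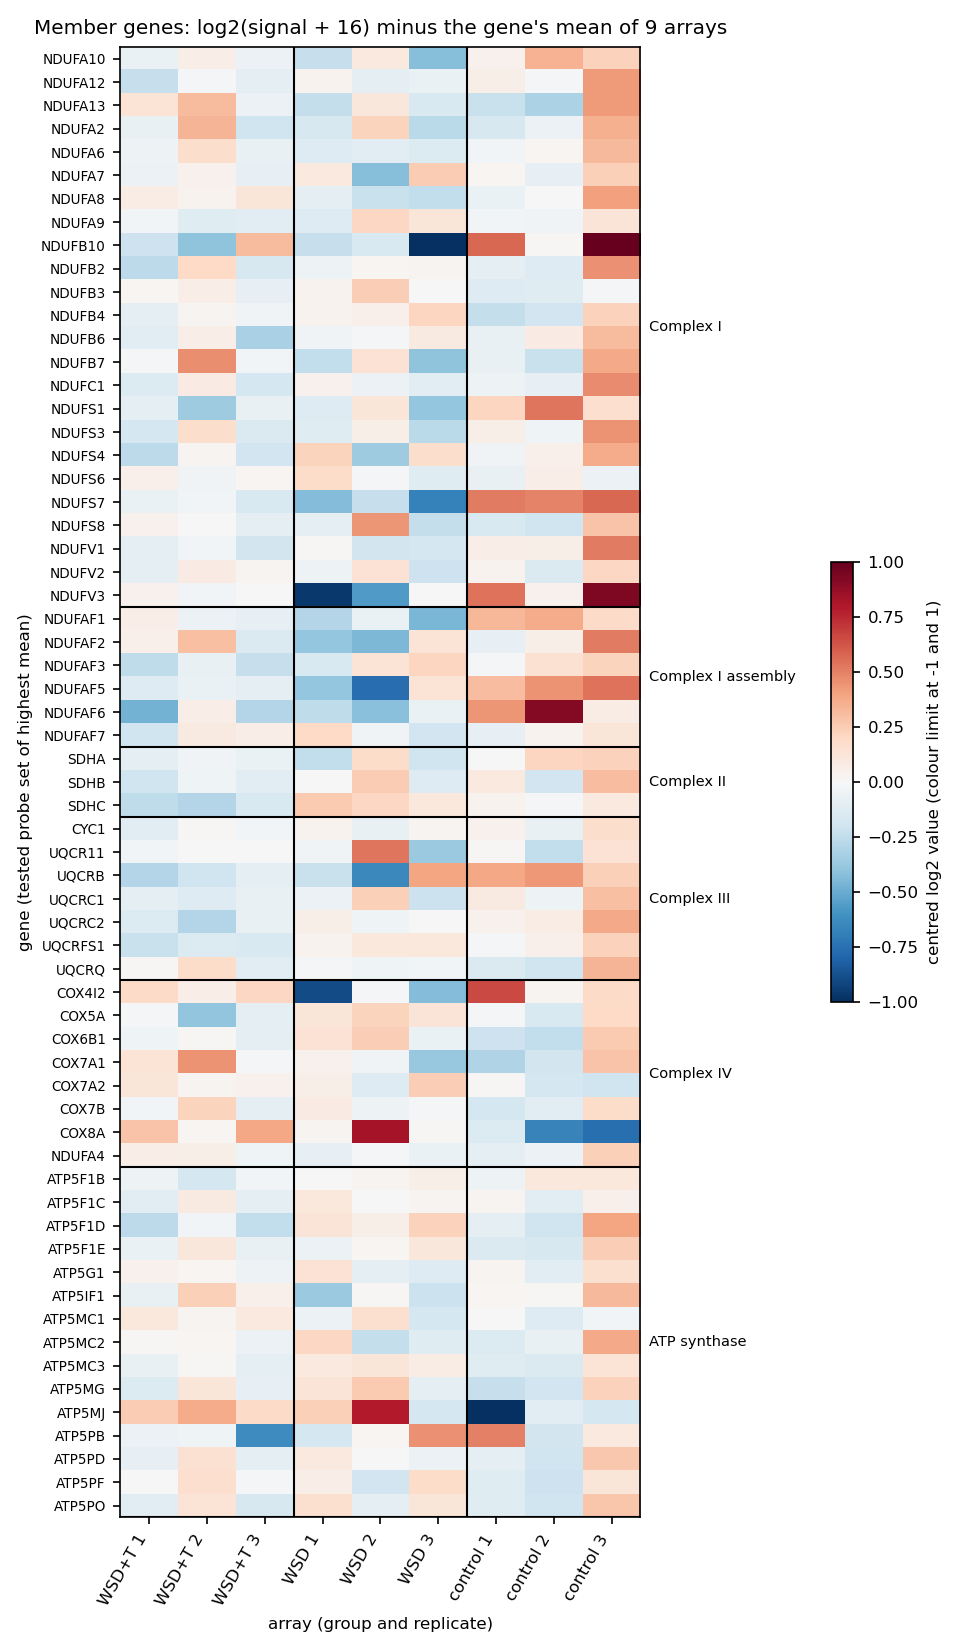
Log2 of signal plus 16 of each of the 63 tested member genes (rows) on each of the 9 arrays (columns), minus the gene's mean over the arrays; colours stop at -1 and 1, beyond which 3 of 567 values lie. Control replicate 3 is the highest array for 37 of the 63 genes, and the row of NDUFS7 is below 0 on every WSD array and above 0 on every control array.

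Among the core subunits of complex I, which carry electrons from NADH to ubiquinone, NDUFS7 had the smallest adjusted p of all members. NDUFS7 holds the last iron-sulfur cluster before the ubiquinone site. Its probe set MmugDNA.32914.1.S1_at gave 885, 907 and 832 in WSD+T follicles, 680.2, 787 and 573 in WSD follicles, against 1333, 1313 and 1385 in control follicles. The groups did not overlap, with WSD lowest, WSD+T between and control highest. In WSD vs control its log2 fold change was -0.98, SE 0.14, adjusted p = 0.00614, and over the alternatives and the fits without 1 array the adjusted p ran from 0.00331 to 0.0441. For WSD+T against control the change was -0.61, SE 0.14, adjusted p = 0.0722; the adjusted p was 0.0182 with only the arrays of these groups, 0.0130 with array weights, 0.0422 with a pseudocount of 64, 0.0299 without WSD replicate 2 and 0.0305 without WSD replicate 3. The difference of WSD+T from WSD was 0.37, SE 0.14, adjusted p = 0.193.

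The other NDUFS7 probe set, MmugDNA.33274.1.S1_at, did not repeat this. It gave 863, 887 and 842 in WSD+T follicles, 647, 875 and 557 in WSD follicles, against 789, 799 and 1310.5 in control follicles. Control replicates 1 and 2 lay inside the combined range of the WSD+T and WSD arrays, and control replicate 3 was the only array above it. Its log2 fold change in WSD vs control was -0.45, SE 0.23, adjusted p = 0.222. Both probe sets were lower on WSD replicates 1 and 3 than on the WSD+T arrays, and the pair differed mainly on control replicates 1 and 2.

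The remaining core subunits were not called in any comparison. NDUFV1, which binds NADH, gave 498, 519.8 and 465 in WSD+T follicles, 535, 465 and 467 in WSD follicles, against 556, 554 and 766 in control follicles. All WSD+T and WSD arrays lay below the control arrays, with log2 fold changes of -0.31 (adjusted p = 0.321) and -0.33 (adjusted p = 0.198). NDUFS1, the largest iron-sulfur subunit, gave 714, 594 and 726 in WSD+T follicles, 696, 832 and 579 in WSD follicles, against 887, 1113 and 861 in control follicles with its brighter probe set. Here too neither diet group overlapped control, with log2 fold changes of -0.48 (adjusted p = 0.202) and -0.44 (adjusted p = 0.135). The dimmer NDUFS1 probe set had -0.38 and -0.60, and its adjusted p in WSD vs control was 0.0573, or 0.0383 without WSD replicate 3. NDUFS3 and NDUFS8, a core subunit and another iron-sulfur subunit, had log2 fold changes of -0.20 and 0.01 in WSD+T vs control and of -0.27 and 0.06 in WSD vs control.

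NDUFV2, the iron-sulfur partner of NDUFV1, showed how far probe sets of 1 gene can part. Its probe set MmugDNA.18192.1.S1_at gave 1012, 1140.1 and 1097 in WSD+T follicles, 1042, 1191 and 931 in WSD follicles, against 1105, 976 and 1250.3 in control follicles, with overlapping groups. The other, MmuSTS.3373.1.S1_at, gave 782, 595 and 743 in WSD+T follicles, 548, 1213 and 33.2 in WSD follicles, against 326, 82.7 and 39.0 in control follicles. The 3 WSD+T arrays stood together above every control array, whereas the WSD and control arrays each spread widely. Its log2 fold change in WSD+T vs control was 2.55 (-0.03 for the first probe set) with an adjusted p of 0.252, and 0.0416 with only the arrays of these groups, 0.0456 with array weights and 0.0483 without WSD replicate 3. In WSD vs control it was 1.40 (adjusted p = 0.412), and 2.76 (0.0235) without WSD replicate 3. The macrophage marker CD68 varied alike, with 2322, 2217 and 2299 in WSD+T follicles, 2287, 3295 and 92.0 in WSD follicles, against 1353, 66.3 and 228 in control follicles. Both were far lower on WSD replicate 3 than on the other WSD arrays, and both were highest among the control arrays on replicate 1. With the mean level of the myeloid markers as a covariate, the log2 fold change of this NDUFV2 probe set was 0.38 in WSD+T vs control (adjusted p = 0.594) and 0.17 in WSD vs control (0.718). The cause of this probe set's difference was not tested.

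Of the accessory subunits of complex I, which surround and stabilise the core, NDUFV3 was called. NDUFV3 sits in the NADH-binding arm. Its tested probe set gave 84.1, 79.4 and 80.7 in WSD+T follicles, 33.7, 49.7 and 81.1 in WSD follicles, against 126, 84.3 and 169.7 in control follicles. WSD replicate 3 lay within the WSD+T range, while every WSD array was below every control array. The log2 fold change in WSD vs control was -1.02, SE 0.28, adjusted p = 0.0442, and in WSD+T vs control -0.51, SE 0.28, adjusted p = 0.362. The WSD vs control call held in 3 of 12 alternatives. It also held without WSD replicate 3 (adjusted p = 0.0121) and without control replicate 2 (0.0413), but not without any 1 of the other 7 arrays, where the adjusted p reached 0.129.

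NDUFB10, an accessory subunit of the membrane arm, had the largest WSD vs control change among the brightest probe sets of the 63 genes, without a call. Its probe set of the x type, a design that can also bind related transcripts, gave 89.9, 76.4 and 136 in WSD+T follicles, 88.1, 93.4 and 43.0 in WSD follicles, against 166, 107 and 251 in control follicles. WSD lay below control without overlap, and control replicate 3 was the highest array. Its WSD vs control change was -1.05, SE 0.34, adjusted p = 0.0752. The other NDUFB10 probe set, near background, had -0.73 (adjusted p = 0.161).

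Most other accessory subunits were bright and even. NDUFB3 gave 1954, 2017 and 1815 in WSD+T follicles, 1970.1, 2282 and 1916 in WSD follicles, against 1757, 1773 and 1897 in control follicles. NDUFA9, which lies near the ubiquinone site, gave 1190.4, 1114 and 1116 in WSD+T follicles, 1107, 1399.8 and 1319.9 in WSD follicles, against 1186, 1180.4 and 1324 in control follicles. NDUFA8 gave 1532, 1491 and 1582 in WSD+T follicles, 1366, 1249 and 1227 in WSD follicles, against 1389, 1452 and 1941 in control follicles. NDUFB3 and NDUFA9 differed by at most 0.18 on the log2 scale in any comparison, and NDUFA8 by -0.30 in WSD vs control (adjusted p = 0.227). NDUFA6 had 5 tested probe sets; 1 of them had a log2 fold change of -0.59 in WSD vs control (adjusted p = 0.0606, or 0.0487 without WSD replicate 3) and the brightest had -0.23. The other 12 accessory genes were NDUFA2, NDUFA7, NDUFA10, NDUFA12, NDUFA13, NDUFB2, NDUFB4, NDUFB6, NDUFB7, NDUFC1, NDUFS4 and NDUFS6. Their brightest probe sets had log2 fold changes between -0.27 and 0.17 in WSD+T vs control, -0.39 and 0.17 in WSD vs control, and -0.16 and 0.30 in WSD+T vs WSD.

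Over complex I as a whole, 24 genes had a tested probe set, and 18 of them had a negative log2 fold change in WSD+T vs control, as 19 did in WSD vs control. The medians over these genes were -0.13 and -0.14. The median in WSD+T vs WSD was 0.01, with 12 genes in each direction. Of all tested probe sets, 13510 of 26383 had a negative fold change in WSD+T vs control and 15095 in WSD vs control.

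Complex I assembly factors build the complex and are not part of the finished enzyme; 6 genes with 8 probe sets were tested. NDUFAF1, a core member of the assembly complex for the membrane arm, gave 928, 849.5 and 837 in WSD+T follicles, 722, 844 and 642 in WSD follicles, against 1118, 1147 and 1012 in control follicles. All WSD and WSD+T arrays were below all control arrays. NDUFAF1 fell in WSD vs control (-0.57, SE 0.14, adjusted p = 0.0329), and in WSD+T vs control its change was -0.32, SE 0.14, adjusted p = 0.266. The WSD vs control call held in 7 of 13 alternatives and, of the fits without 1 array, without WSD replicate 2 (adjusted p = 0.0212) and without WSD replicate 3 (0.0454); without any 1 of the other 7 arrays it did not, with adjusted p up to 0.0973. 

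NDUFAF5, which in human cells hydroxylates NDUFS7, gave 180.0, 188 and 185 in WSD+T follicles, 148, 109.8 and 219 in WSD follicles, against 249, 276 and 296 in control follicles with its brightest probe set. Control was above the other groups without overlap, and the WSD arrays spread most. The log2 fold change in WSD vs control was -0.77, SE 0.21, adjusted p = 0.0451, and its other tested probe set had -0.64, SE 0.21, adjusted p = 0.0746. The call held in 4 of 13 alternatives. Of the fits without 1 array it held without WSD replicate 3 (0.00689) but not without any 1 of the other 8, where the adjusted p reached 0.123. Against control, the WSD+T changes of both were -0.53 (adjusted p = 0.231) and -0.66 (adjusted p = 0.144); with only the arrays of these groups the adjusted p was 0.0314 and 0.0251, and with array weights 0.0443 and 0.0250.

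NDUFAF6 gave 169, 253 and 193 in WSD+T follicles, 199, 176 and 229 in WSD follicles, against 333, 469 and 254 in control follicles. WSD+T and WSD arrays lay below control, with log2 fold changes of -0.71 (adjusted p = 0.158) and -0.73 (adjusted p = 0.0743). NDUFAF2, NDUFAF3 and the brightest probe set of NDUFAF7, a methyltransferase for a core subunit, had -0.40, -0.06 and -0.04 in WSD vs control. A dimmer NDUFAF7 probe set ran the other way, at 63.3, 63.9 and 75.6 in WSD+T follicles, 66.1, 64.9 and 92.2 in WSD follicles, against 20.4, 53.5 and 41.1 in control follicles. Every WSD+T and WSD array was above every control array, with log2 fold changes of 0.67 (adjusted p = 0.188) and 0.77 (adjusted p = 0.0657); in WSD vs control the adjusted p was 0.0427 with cyclic loess and 0.0148 with the myeloid covariate. The third NDUFAF7 probe set, below the signal filter, was also higher in both diet groups without overlap, at 12.2, 15.3 and 12.1 in WSD+T follicles, 14.6, 11.5 and 13.8 in WSD follicles, against 3.51, 5.21 and 5.96 in control follicles, with an adjusted p of 0.0285 in WSD vs control when no filter was set. By their brightest probe sets all 6 genes had a negative fold change in both comparisons with control, which for NDUFAF7 was near 0 and not shared by its other probe sets. The mean of the 6 centred log2 values averaged -0.08 ± 0.11 in WSD+T, -0.17 ± 0.12 in WSD and 0.25 ± 0.09 in control follicles (SD, n = 3 arrays each), and the WSD+T and WSD arrays did not reach the lowest control array. The difference from control kept its sign in all 13 alternatives and all 9 fits without 1 array. It lay at -0.36 to -0.21 and -0.40 to -0.30 for WSD+T and at -0.45 to -0.29 and -0.49 to -0.38 for WSD. Fits that changed only the weights, the prior, the block or the arrays of the third group could not alter it.

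**Figure D3:**
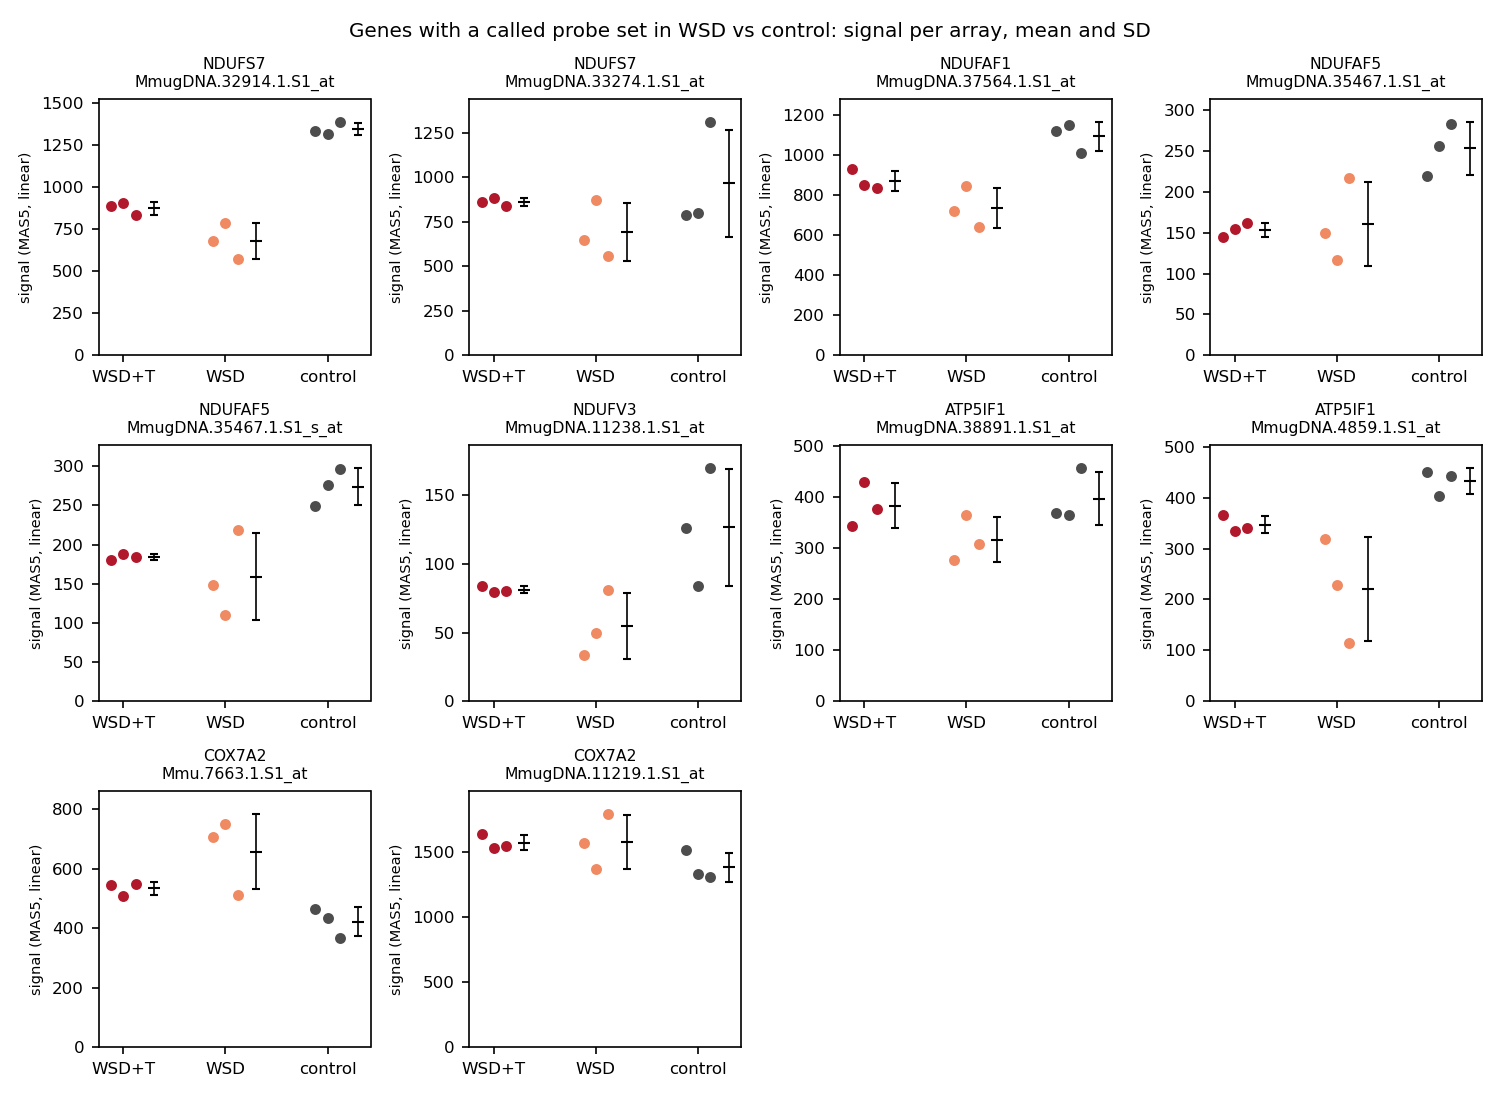
Signal (linear, vertical axis from 0) of every tested probe set of the 6 genes with a call in WSD vs control, for the 3 arrays of each group; points are arrays and the bar beside them is the mean with its SD. Where a gene has 2 probe sets, as NDUFS7, NDUFAF5, ATP5IF1 and COX7A2 do, 1 of the pair was called.

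Complex II feeds electrons from the tricarboxylic acid cycle into the chain, and its 3 tested genes were not called. SDHA, the flavoprotein that oxidises succinate, gave 1264, 1311 and 1285 in WSD+T follicles, 1133, 1526 and 1166 in WSD follicles, against 1344, 1563 and 1583 in control follicles. SDHB, its iron-sulfur partner, gave 965, 1076 and 1031 in WSD+T follicles, 1112, 1322 and 1014 in WSD follicles, against 1189.5, 968 and 1377 in control follicles. Both had overlapping groups in WSD vs control, with log2 fold changes of -0.24 and -0.03. In WSD+T vs control, every WSD+T array of SDHA lay below every control array (-0.21, adjusted p = 0.490), while SDHB overlapped (-0.19, adjusted p = 0.590). SDHC, a membrane anchor, gave 1372, 1342 and 1474 in WSD+T follicles, 1969, 1903 and 1772 in WSD follicles, against 1688, 1632 and 1759.9 in control follicles. Its WSD+T arrays were below all other arrays and its WSD arrays were above all other arrays. The log2 fold change in WSD+T vs WSD was -0.43, SE 0.12, adjusted p = 0.0891, which passed with a stricter signal filter (0.0492) and with a trended, robust prior (0.0436) and in no other fit run. Against control it was -0.28 in WSD+T (adjusted p = 0.257).

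Complex III was represented by 7 genes. UQCRFS1, the Rieske iron-sulfur protein, gave 1578, 1673 and 1654 in WSD+T follicles, 1882, 1981 and 1983 in WSD follicles, against 1814, 1905 and 2160.3 in control follicles. WSD+T lay below both other groups, with log2 fold changes of -0.26 against control (adjusted p = 0.301) and -0.25 against WSD (adjusted p = 0.294), while WSD and control overlapped. UQCRC2, a core subunit, gave 1405, 1259 and 1471 in WSD+T follicles, 1612, 1501 and 1548 in WSD follicles, against 1592, 1629 and 2019.7 in control follicles, again with WSD+T lowest. CYC1, cytochrome c1, gave 827, 902 and 880.4 in WSD+T follicles, 917, 851 and 911 in WSD follicles, against 923, 852 and 1013 in control follicles and varied little. UQCRC1, the other core subunit, had log2 fold changes of -0.21, -0.12 and -0.09 in WSD+T vs control, WSD vs control and WSD+T vs WSD with its brightest probe set.

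The small subunit UQCRB, which helps to shape the ubiquinone site, had 4 tested probe sets. In WSD vs control their log2 fold changes were all negative, at -0.30, -0.63, -0.51 and -0.51, without a call (lowest adjusted p = 0.0613), and without WSD replicate 3 the last 3 were called, with adjusted p of 0.0480, 0.0153 and 0.0162. For WSD+T against control the values were -0.15, -0.20, -0.55 and 0.20. The brightest gave 427, 458 and 493 in WSD+T follicles, 451, 331 and 698 in WSD follicles, against 695, 718 and 625 in control follicles. Here WSD+T was below control without overlap (-0.55, SE 0.24, adjusted p = 0.258), and the adjusted p with only the arrays of these groups was 0.0317. The dimmest, MmugDNA.6320.1.S1_at, gave 51.2, 61.5 and 45.2 in WSD+T follicles, 17.3, 22.1 and 41.8 in WSD follicles, against 39.8, 49.9 and 41.5 in control follicles. It was higher in WSD+T than in WSD without overlap (0.71, SE 0.21, adjusted p = 0.106), with an adjusted p of 0.0241 without WSD replicate 3 and of 0.0216 with a myeloid marker score in the fit. UQCRQ and UQCR11 were even between groups, at 0.03 and 0.02 in WSD+T vs control.

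In complex IV, the oxidase that consumes oxygen, most genes changed by less than 1.5-fold by their brightest probe sets: 7 of 8 in WSD+T vs control and 6 of 8 in WSD vs control. COX6B1 gave 3093, 3209 and 2967 in WSD+T follicles, 3514, 3785 and 3037 in WSD follicles, against 2749, 2682 and 3827 in control follicles, COX7B had mean signals of 4364 ± 519 in WSD+T, 4269.9 ± 214 in WSD and 4179 ± 571 in control follicles, and COX5A had 1835 ± 243 in WSD+T, 2289.8 ± 93.6 in WSD and 2071 ± 259.6 in control follicles (SD, n = 3 arrays each). For COX5A every WSD+T array was below every WSD array (-0.33, adjusted p = 0.271). NDUFA4, named as a complex I subunit and now assigned to complex IV, gave 2709.7, 2696 and 2500.2 in WSD+T follicles, 2435, 2567 and 2462 in WSD follicles, against 2409, 2479 and 3043 in control follicles. Its groups overlapped in all 3 comparisons, with log2 fold changes of 0.00, -0.08 and 0.08 in WSD+T vs control, WSD vs control and WSD+T vs WSD. COX6B2 and COX7A2L are not analysed here.

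COX7A2, the widely expressed form of subunit 7A, was the only member called higher. Its dimmer probe set gave 543, 509 and 549 in WSD+T follicles, 707, 749 and 513 in WSD follicles, against 465, 434 and 368 in control follicles. Every WSD and WSD+T array was above every control array, and WSD replicate 3 lay with the WSD+T arrays. The log2 fold change was 0.61, SE 0.17, adjusted p = 0.0493 in WSD vs control and 0.33, SE 0.17, adjusted p = 0.329 in WSD+T vs control. The call held in 7 of 13 alternatives and, of the fits without 1 array, without WSD replicate 3 (adjusted p = 0.0110) but not without any 1 of the other 8, where it reached 0.137. The brighter COX7A2 probe set gave 1636, 1529 and 1544 in WSD+T follicles, 1568, 1371 and 1788 in WSD follicles, against 1510.5, 1328 and 1307 in control follicles and had log2 fold changes of 0.18 and 0.18. COX7A1, the form typical of heart and skeletal muscle, gave 795, 989 and 710.3 in WSD+T follicles, 743, 701 and 551 in WSD follicles, against 581, 630.2 and 881 in control follicles with overlapping groups.

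COX8A, the widely expressed form of subunit 8, gave 227, 186 and 244 in WSD+T follicles, 187, 338 and 184 in WSD follicles, against 165, 109 and 102 in control follicles. All WSD+T and WSD arrays were above all control arrays. It differed by 0.75, SE 0.26, adjusted p = 0.176 in WSD+T vs control and by 0.81, SE 0.26, adjusted p = 0.0725 in WSD vs control; with array weights the adjusted p in WSD+T vs control was 0.0436, and in WSD vs control it was 0.0444 with quantile normalization, 0.0425 with cyclic loess and 0.0420 without WSD replicate 3. COX4I2, the oxygen-responsive form of subunit 4, gave 41.4, 36.6 and 42.2 in WSD+T follicles, 11.1, 34.0 and 21.2 in WSD follicles, against 63.5, 35.2 and 41.5 in control follicles. The WSD arrays were below the WSD+T and control arrays, with log2 fold changes of -0.74 against control (adjusted p = 0.0778) and, for WSD+T vs WSD, 0.60 (adjusted p = 0.207); without WSD replicate 2 the adjusted p of WSD vs control was 0.0305. Its signal was low, so the added 16 makes these changes smaller than the ratios of the signals.

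NDUFA4L2, a paralogue of NDUFA4 that hypoxia induces, was below the signal filter and has no test. It gave 38.3, 35.8 and 36.6 in WSD+T follicles, 13.5, 19.6 and 3.98 in WSD follicles, against 18.7, 8.12 and 19.8 in control follicles. The WSD+T arrays lay within a narrow band above all WSD and control arrays. When no filter was set, its log2 fold change in WSD+T vs control was 0.77 with an adjusted p of 0.181. It passed the filter in some fits that left out arrays on which it was low, so those fits are not read as tests of it. COX6A2, the heart and muscle form of subunit 6A, was likewise below the filter, at 3.01, 3.53 and 16.9 in WSD+T follicles, 2.69, 1.97 and 15.6 in WSD follicles, against 2.21, 4.37 and 10.2 in control follicles.

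**Figure D4:**
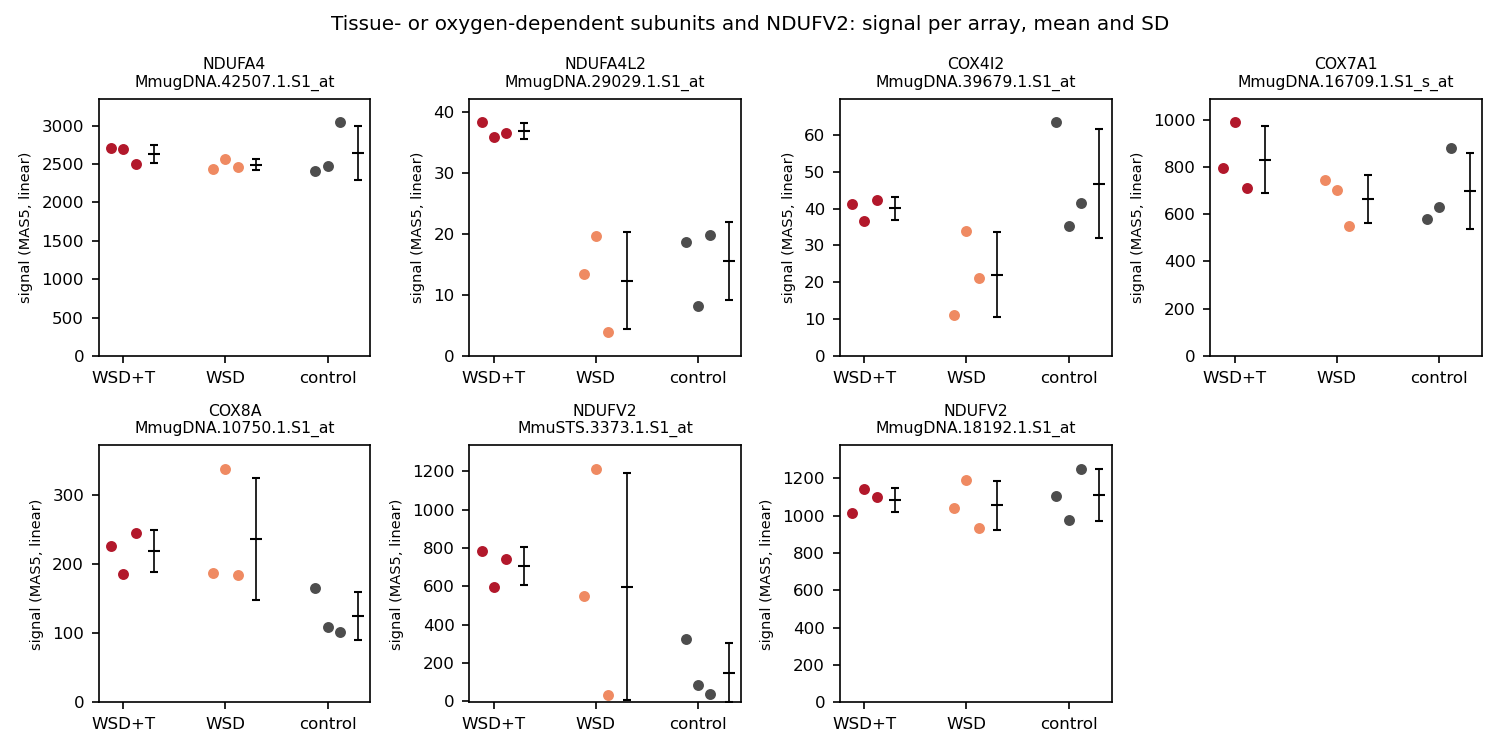
Signal (linear, vertical axis from 0 unless an error bar goes below it) of COX4I2, COX7A1, COX8A, NDUFA4, NDUFA4L2 and both tested NDUFV2 probe sets, for the 3 arrays of each group; points are arrays and the bar beside them is the mean with its SD. NDUFA4L2 is above 35 on every WSD+T array and below 20 on every other array.

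ATP synthase was represented by 15 genes, and ATP5F1C, ATP5F1B, ATP5MC3 and ATP5G1 had the narrowest ranges over the 9 arrays of all 63 genes by their brightest probe sets. ATP5F1B, the catalytic beta subunit, gave 2121, 1944 and 2149 in WSD+T follicles, 2197, 2236 and 2283 in WSD follicles, against 2114, 2356 and 2365 in control follicles with its brighter probe set. ATP5F1C, the gamma subunit that turns inside the head, gave 2414, 2770.5 and 2439 in WSD+T follicles, 2796, 2612 and 2650.3 in WSD follicles, against 2659, 2411 and 2698 in control follicles. The log2 fold changes of these were -0.14 and -0.03 in WSD+T vs control and -0.02 and 0.05 in WSD vs control. ATP5F1C had the narrowest range, 0.21 on the log2 scale between its lowest and highest array. The second ATP5F1B probe set was dimmer and far more variable, at 349, 555 and 319 in WSD+T follicles, 294, 212 and 149.9 in WSD follicles, against 343, 836 and 272 in control follicles, with -0.97 in WSD vs control (adjusted p = 0.153).

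The genes of the proton-carrying c ring encode the same mature protein. ATP5MC3 gave 3396, 3593 and 3325 in WSD+T follicles, 3818, 3876 and 3749 in WSD follicles, against 3279, 3232 and 3930.2 in control follicles, and the bright ATP5MC1 probe set gave 1799, 1700.0 and 1787 in WSD+T follicles, 1599, 1872 and 1477 in WSD follicles, against 1673, 1525 and 1636 in control follicles. Their log2 fold changes against control lay between -0.01 and 0.14. The probe set annotated as ATP5G1 gave 2739, 2697 and 2572 in WSD+T follicles, 2940.3, 2482 and 2436 in WSD follicles, against 2713, 2452 and 2977 in control follicles, also even. ATP5MC2 was dimmer, at 154, 155 and 146 in WSD+T follicles, 179, 127 and 139 in WSD follicles, against 137, 144 and 203 in control follicles, with overlapping groups.

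ATP5IF1, the inhibitor that keeps the enzyme from hydrolysing ATP, was the only ATP synthase gene with a call. Its probe set MmugDNA.4859.1.S1_at gave 365, 335 and 340.0 in WSD+T follicles, 318, 228 and 115 in WSD follicles, against 451, 404 and 442 in control follicles. WSD was lowest and control highest, without overlap between any groups. It changed by -1.02, SE 0.29, adjusted p = 0.0497 in WSD vs control and had -0.31, SE 0.29, adjusted p = 0.613 in WSD+T vs control. The call held in 4 of 13 alternatives and, of the fits without 1 array, without WSD replicate 1 (adjusted p = 0.0233) and without WSD replicate 3 (0.0266); without any 1 of the other 7 arrays it did not, with adjusted p up to 0.122. The other ATP5IF1 probe set gave 343, 430.4 and 376 in WSD+T follicles, 277, 364 and 309 in WSD follicles, against 368, 366 and 457 in control follicles, with -0.31, SE 0.16, adjusted p = 0.227.

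ATP5MJ, a small subunit of the membrane part, had the widest range of all 63 genes, 2.20 on the log2 scale. It gave 772, 839.6 and 739 in WSD+T follicles, 763, 1127 and 568 in WSD follicles, against 233, 599 and 568 in control follicles. Control replicate 1 was far below the other arrays, and WSD+T lay above all control arrays. The log2 fold changes were 0.84 in WSD+T vs control (adjusted p = 0.256) and 0.85 in WSD vs control (adjusted p = 0.152). The other, dimmer ATP5MJ probe set had 0.41 (adjusted p = 0.424) and 0.06 (adjusted p = 0.888). The peripheral stalk subunits ATP5PD, ATP5PF and ATP5PO, the epsilon subunit ATP5F1E and the membrane subunit ATP5MG had log2 fold changes between -0.03 and 0.16 in both comparisons with control. The delta subunit ATP5F1D gave 839, 992 and 849.8 in WSD+T follicles, 1108, 1054 and 1186 in WSD follicles, against 946, 878 and 1335 in control follicles, with WSD+T below WSD without overlap and no call. ATP5PB, a peripheral stalk subunit of low signal here, had -0.38 and -0.04 against control. Over the 15 genes the median was -0.02 in WSD+T vs control, 0.04 in WSD vs control and -0.03 in WSD+T vs WSD.

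Of the 24 genes with more than 1 tested probe set, the log2 fold changes of the probe sets lay within 0.5 of each other for 19 genes in WSD+T vs control, 16 in WSD vs control and 18 in WSD+T vs WSD. Only NDUFV2 had a gap over 1, in all 3 comparisons. Signs differed within a gene for 10, 8 and 13 genes, and in 5, 7 and 6 of these at least 1 probe set changed by more than 0.3 on the log2 scale. Each of the 4 called genes with a pair of tested probe sets had 1 call.

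Across all members, control replicate 3 stood above the other arrays. It was the highest of the 9 arrays for 37 of 63 genes, and for 26 of the 40 bright member probe sets (65%) against 26.3% of all 4162 bright probe sets. The mean of the 63 centred log2 values was 0.26 there and between -0.08 and 0.03 on every other array. By complex, the same mean on control replicate 3 was 0.37 for complex I, 0.28 for the assembly factors, 0.21 for complex II, 0.26 for complex III, 0.05 for complex IV and 0.17 for ATP synthase. Without control replicate 3 the median log2 fold change over the 63 genes was 0.01 in WSD+T vs control and 0.02 in WSD vs control, against -0.09 and -0.06 with it. NDUFS7 had a log2 fold change of -0.96 (adjusted p = 0.0225) in WSD vs control without this array.

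**Figure D5:**
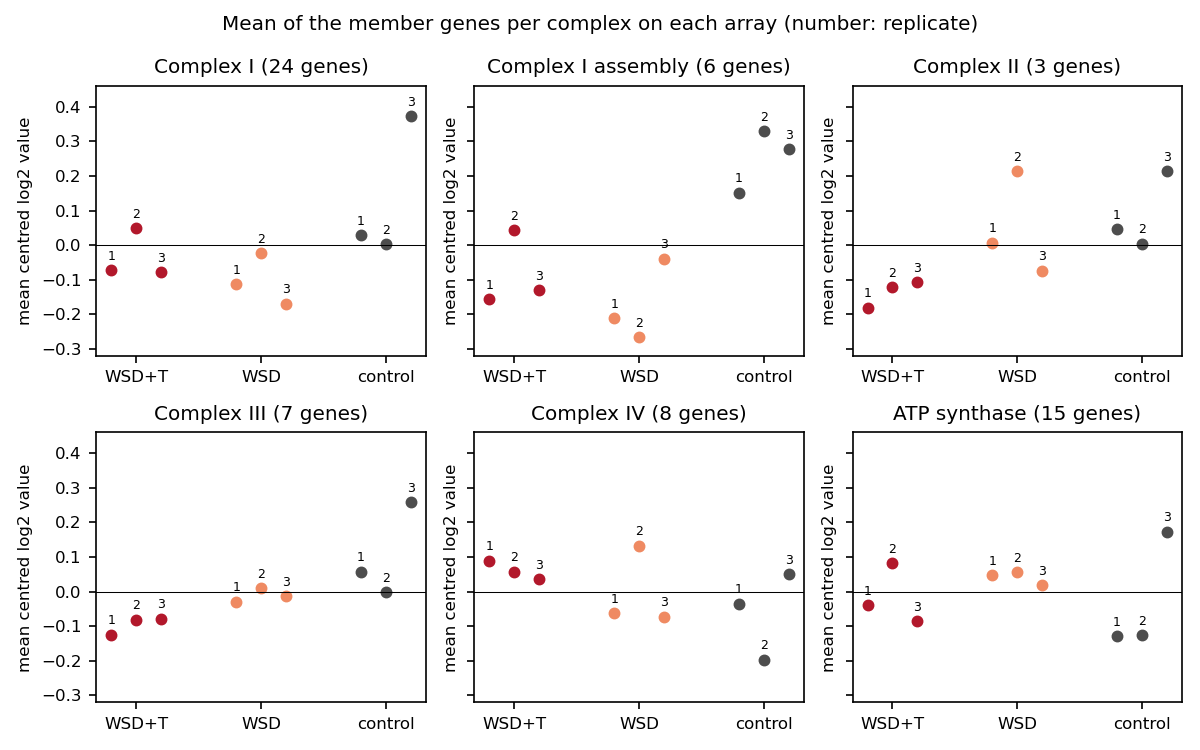
Mean over the genes of each complex of the centred log2 values (vertical axis) on each array (points, numbered by replicate), for the 3 groups. The assembly factors lie between 0.15 and 0.33 on the control arrays and at or below 0.04 elsewhere, and control replicate 3 is the highest control array for complexes I, II, III and IV and ATP synthase.

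For complex III, every WSD+T array was below every WSD and control array by this mean, at -0.09 ± 0.03 in WSD+T, -0.01 ± 0.02 in WSD and 0.10 ± 0.14 in control follicles (SD, n = 3 arrays each). For complex II, at -0.14 ± 0.04, 0.05 ± 0.15 and 0.09 ± 0.11, the WSD+T arrays were likewise below all others. For complex IV it was 0.06 ± 0.03, 0.00 ± 0.12 and -0.06 ± 0.13, and for ATP synthase -0.01 ± 0.09, 0.04 ± 0.02 and -0.03 ± 0.17, with overlapping groups. The WSD+T differences from control were -0.22 for complex II and -0.20 for complex III. They kept their sign in all 13 alternatives (-0.30 to -0.20 and -0.21 to -0.18) and all 9 fits without 1 array (-0.27 to -0.16 and -0.25 to -0.12). Fits that changed only the weights, the prior, the block or the WSD arrays could not alter them. The differences of WSD from control were smaller, at -0.04 and -0.12. Centring each array on its median gave a median of all tested probe sets of 0.05 in WSD vs control, against -0.08 without centring, and of -0.05 in WSD+T vs WSD, against 0.09, and with it the complex II and III differences of WSD from control turned positive (0.09 and 0.02). That of complex II was also positive without WSD replicate 3 (0.02) and without control replicate 3 (0.02).

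Genes that serve the chain without being part of it were counted from lists of known function. Of 35 tested assembly factors outside the symbols above, 6 were called lower and 0 higher in WSD vs control, against 9.68% lower and 4.78% higher over the table, 1 lower in WSD+T vs control and 0 in WSD+T vs WSD. SDHAF4, an assembly factor of complex II, gave 57.2, 83.8 and 76.1 in WSD+T follicles, 62.1, 64.7 and 44.8 in WSD follicles, against 165, 155 and 168 in control follicles. Control stood above the other groups without overlap, with log2 fold changes of -1.03, SE 0.17, adjusted p = 0.0280 in WSD+T vs control and -1.30, SE 0.17, adjusted p = 0.00429 in WSD vs control. ACAD9, which works with NDUFAF1 in complex I assembly, gave 354, 389.8 and 354 in WSD+T follicles, 231, 301 and 254 in WSD follicles, against 461, 504 and 529 in control follicles and fell in WSD vs control (-0.89, SE 0.14, adjusted p = 0.00737). BCS1L, which inserts the Rieske protein into complex III, gave 561, 546 and 578 in WSD+T follicles, 436, 509 and 426 in WSD follicles, against 696, 691 and 794 in control follicles and fell as well (-0.65, SE 0.13, adjusted p = 0.0154). The other 3 were PET100, ATPAF2 and LYRM7, all lower in WSD. The median log2 fold change over the 35 was -0.15 in WSD+T vs control and -0.29 in WSD vs control. With only the arrays of WSD and control fitted, the count in WSD vs control was 2, against 3.46% of all tested probe sets.

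Of 18 tested inner-membrane carriers and ubiquinone synthesis genes, 5 were called lower in WSD vs control and 0 higher. COQ9 and COQ3, which serve ubiquinone synthesis, fell to 246 ± 38.3 and 347 ± 29.1 in WSD, against 418 ± 25.8 and 717 ± 138 in control follicles (SD, n = 3 arrays each, adjusted p = 0.0149 and 0.0151). SLC25A11, the oxoglutarate-malate carrier, changed by -0.84, SE 0.18, adjusted p = 0.0192; DHODH and NNT were the others. Of 12 mitochondrial biogenesis genes, the transcription elongation factor TEFM (-0.87, SE 0.18, adjusted p = 0.0170) and the mitochondrial DNA helicase TWNK (-0.88, SE 0.23, adjusted p = 0.0391) were called lower and 0 higher. Of 19 import and cristae genes TIMM17B was called lower (-0.59, SE 0.15, adjusted p = 0.0318), and of 18 tricarboxylic acid cycle and pyruvate entry genes PDP1, the phosphatase that switches on pyruvate dehydrogenase, was called higher (0.58, SE 0.12, adjusted p = 0.0196). In WSD+T vs control and in WSD+T vs WSD, limma called 0 genes of these 4 lists, and 0 of the 8 tested hypoxia-responsive genes in any comparison. For the fit of all 9 arrays, 14.5% of all tested probe sets were called in WSD vs control. The shares were 1.97% in WSD+T vs control and 2.99% in WSD+T vs WSD. With only the arrays of WSD+T and control fitted, limma called 2 hypoxia-responsive genes, 1 carrier and 1 biogenesis gene, against 12.3% of all tested probe sets. Without WSD replicate 3 it called 3 hypoxia-responsive genes in WSD vs control, against 25.1% of all tested probe sets in that fit. With only the arrays of WSD and control fitted, 1 carrier was called in WSD vs control. Biogenesis, import and the cycle each had 0, against 3.46% of all tested probe sets in that fit. With array weights the counts were the same, against 5.18%.

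The arrays measured whole follicles, so fewer cells of a type and less RNA per cell cannot be told apart. The summed signal of the 8 tested granulosa markers ranged from 5498 to 6030 in WSD+T, 4144 to 7894 in WSD and 9130 to 11854 in control follicles. It was lower in both diet groups without overlap. The brightest markers weigh most in such a sum. Of these 8 markers, limma called 2 lower and 0 higher in WSD+T vs control, against 1.97% of all tested probe sets. In WSD vs control it called 2 lower and 1 higher, against 14.5%. The summed signal of the 12 macrophage and myeloid markers on the array ranged from 16213 to 17975 in WSD+T, 1418 to 25204 in WSD and 2168 to 10951 in control follicles. For the 10 oocyte markers on the array it ranged from 1503 to 1748, 1124 to 1723 and 644 to 1264 in the same order of groups. The part of these cell types in the member results was not tested beyond 1 fit with the myeloid score as a covariate. That fit called 0, 7 and 1 of 95 members in WSD+T vs control, WSD vs control and WSD+T vs WSD. Over the table it called 1.39%, 17.0% and 8.39% of all tested probe sets.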

How the data were processed

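Per the labels' protocols, RNA of pooled small antral follicles was amplified with a NuGEN 3′ IVT assay and hybridised with biotin label to 1-colour arrays, 1 per sample. The authors deposited 1 linear intensity (signal) for each probe set, computed by MAS5 per the submitters' processing notes; its version, its other settings and the genome build are not given in the sources used here. The trimmed mean, without the outer 2% of probe sets, was the same on all 9 arrays, and no further normalization was applied. For arrays, their number limits the precision.

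Gene symbols came from the array annotation, and 106 of 108 member probe sets matched the same symbol in a RefSeq gene table. Values were analysed as log2(signal + 16), which understates fold changes of dim probe sets. Testing kept probe sets whose mean reached the non-control median (5.22, a signal of 21.2): 26383 of 52766. A linear model with group means was fitted with limma 3.58.1 (lmFit, eBayes; 6 residual and 2.69 prior degrees of freedom) in R 4.3.3, and p-values were adjusted by Benjamini-Hochberg over all tested probe sets of a comparison. The code was tested on simulated data. Each gene took its tested probe set of highest mean, and centred values are log2 values minus their mean over 9 arrays. Alternatives changed the pseudocount, filter, scaling, arrays fitted, weights, prior, replicate block and a myeloid covariate, or left out each array. Plots used matplotlib 3.10.9 (Python 3.11.15).

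The members and lists were chosen with earlier results of these data known. The genes named were up to 10 called members per direction and comparison, a set of well-known subunits and isoform pairs whatever their p, and up to 3 called genes per list; other members were named after their values were seen. Sequences are not used here.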

Additional observations from a re-analysis of the deposited data

How the results depend on the processing

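The call of NDUFS7 in WSD vs control was kept in all 13 alternatives and all 9 fits without 1 array. No called value changed sign. Changing the filter, the prior, the weights, the block or the WSD+T arrays leaves a probe set's fold change in WSD vs control as it was. Its sign could not change in those fits. With only the arrays of the groups compared, the calls over the table were 3245 in WSD+T vs control, 913 in WSD vs control and 9 in WSD+T vs WSD, against 520, 3817 and 789, and the member calls 6, 1 and 0, against 0, 6 and 0. With array weights per group they were 3267, 1367 and 186, with 5, 1 and 0 members. With WSD+T replicates 1 and 3 averaged they were 0, 2544 and 0, with 0, 1 and 0 members. With the replicate number as a block they were 3, 2220 and 1, with 0, 1 and 0 members; deviations of samples with the same number correlated at -0.30 to 0.19, so the numbers were not taken as pairs. A pseudocount of 64 called 1 member in WSD+T vs control, against 2.65% of all tested probe sets. Testing all probe sets called 3 members in WSD vs control, against 6.45% of all. The stricter filter called 2398 probe sets in WSD vs control, of fewer tested. In WSD+T vs WSD it called 1 member, against 6.12% of all tested, and a trended, robust prior called 1, against 3.02%. The myeloid covariate called 2213 probe sets (8.39%) and 1 member in WSD+T vs WSD. Median centring called 2 members in WSD vs control, against 10.4% of all tested probe sets, and 300 probe sets in WSD+T vs WSD. It gave member medians of 0.074 and -0.149 in these comparisons. Of the calls in WSD vs control, 1262 were higher and 2555 lower; this was 1459 and 1286 with median centring, 1498 and 1967 with quantile normalization and 1714 and 1737 with cyclic loess. In WSD+T vs WSD, 539 and 250 became 120 and 180, 303 and 324, and 287 and 381 in the same order of scalings. The cause of these shifts was not tested.

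Leaving out each array in turn gave 0 to 1777 calls in WSD+T vs control, 1735 to 6628 in WSD vs control and 0 to 1548 in WSD+T vs WSD, with 0 to 4, 1 to 14 and 0 to 1 members, most without WSD replicate 3. The members' median log2 fold change ran from -0.130 to 0.00998, -0.126 to 0.0194 and -0.0581 to 0.0137, and was highest without control replicate 3 in both comparisons with control. With 3 arrays per group and dim probe sets near background, differences under about 1.5-fold were often not detectable for single genes. Larger ones could also go without a call in limma. Examples are NDUFB10 at -1.05 in WSD vs control (adjusted p = 0.0752) and NDUFAF6 at -0.71 in WSD+T vs control (adjusted p = 0.158).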
